A study of Mus musculus with 2 samples.

Results

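The 10 genes described here are Bhlhe40 and Bhlhe41, Clock, Arntl and Npas2, Per1, Per2 and Per3, and Cry1 and Cry2, which together form the core of the mammalian circadian clock and its nearest repressors. They were chosen by name from a list of CUT&Tag peaks whose values were already known, and the peaks counted are those that the authors' annotation gives to one of these gene symbols. That list held 99797 peaks, of which 65 were assigned to these 10 of 21911 protein-coding genes. In CUT&Tag, an antibody brings the transposase Tn5 to its target on chromatin, and the fragments cut there are sequenced. Both libraries came from the hippocampus of C57BL/6J mice with the genotype CamK-PARIS. One library was made with anti-FLAG, used to capture PARIS, a zinc-finger repressor encoded by Zfp746, and the other with IgG as the negative control. The mice were untreated. Their age and number, the promoter that the name CamK stands for and whether animals were pooled are not given in the sources used here. No mice of another genotype are compared, and the IgG library enters only through the authors' peak calling.

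With 1 library per antibody no value below has a replicate error, and no test between conditions was possible. The depth of the libraries is unknown from the files. In this text the values are the authors' maximum signal of a peak (its highest coverage), the authors' total signal (coverage summed over its bases) and the authors' distance from the region of maximum signal to the assigned transcription start site (TSS), negative where it lies upstream. A peak whose total was at least 99% of its maximum times its width is called a constant-height peak here. Among marker genes, 4 of 5 for excitatory neurons (Camk2a, Slc17a7, Prox1 and Wfs1, not Neurod6) had a peak within 1 kb of a TSS. The count was 1 of 4 genes each for oligodendrocytes (Mbp), astrocytes (Aldh1l1) and microglia (P2ry12), against 41.6% of all protein-coding genes. Without constant-height peaks, 3 of 5 excitatory neuron genes and 1 of 4 oligodendrocyte genes had one. It was then 0 of 4 each for astrocytes and microglia, against 28.3% of all protein-coding genes. These short lists do not identify the tissue. Which cells of the hippocampus held FLAG-tagged PARIS is not known here, so neither peaks nor their absence can be assigned to a cell type. Peaks are not RNA levels.

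In the clock, CLOCK or its relative NPAS2 pairs with BMAL1, the product of Arntl, and the pair activates genes through E-boxes, of which CACGTG is the canonical form. PER and CRY proteins form a complex that represses this pair and thereby their own genes. BHLHE40 and BHLHE41, also named DEC1 and DEC2, bind the same E-boxes as repressors, and Bhlhe40 is also induced by neuronal activity. A second element, the D-box, is bound by activators such as DBP and TEF and by the repressor NFIL3.

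The sequences below come from the 4 peaks on which the account turns, read from the reference genome GRCm38.p6, the mm10 build. They are the part of the Bhlhe40 gene-start peak at chr6:108660079-108660378 (plus strand), 300 bases from one edge of the Bhlhe41 peak with 3 E-boxes, chr6:145855833-145856132 (minus strand), the summit of the tallest Per2 peak at chr1:91457724-91458023 (minus strand) and the summit of the tallest Cry2 peak at chr2:92434086-92434360 (minus strand). Each is written in the direction of its gene, and capitals mark CACGTG and CACGTT on either strand.
Bhlhe40: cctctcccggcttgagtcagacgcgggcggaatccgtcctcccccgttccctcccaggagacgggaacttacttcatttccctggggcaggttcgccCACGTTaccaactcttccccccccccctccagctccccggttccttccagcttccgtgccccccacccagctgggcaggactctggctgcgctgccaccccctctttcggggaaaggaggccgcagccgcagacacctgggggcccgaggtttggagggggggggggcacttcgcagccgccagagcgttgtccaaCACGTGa
Bhlhe41: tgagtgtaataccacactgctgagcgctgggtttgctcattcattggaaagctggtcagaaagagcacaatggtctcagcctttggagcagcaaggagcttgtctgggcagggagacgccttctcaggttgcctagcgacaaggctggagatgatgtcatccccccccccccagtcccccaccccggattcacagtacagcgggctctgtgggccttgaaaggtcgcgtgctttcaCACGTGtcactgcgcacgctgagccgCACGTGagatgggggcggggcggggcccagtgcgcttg
Per2: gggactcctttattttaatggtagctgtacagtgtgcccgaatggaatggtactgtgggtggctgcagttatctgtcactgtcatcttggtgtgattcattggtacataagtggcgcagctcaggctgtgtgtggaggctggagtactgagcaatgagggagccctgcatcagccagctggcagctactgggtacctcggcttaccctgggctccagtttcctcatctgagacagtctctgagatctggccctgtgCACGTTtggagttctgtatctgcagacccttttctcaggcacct
Cry2: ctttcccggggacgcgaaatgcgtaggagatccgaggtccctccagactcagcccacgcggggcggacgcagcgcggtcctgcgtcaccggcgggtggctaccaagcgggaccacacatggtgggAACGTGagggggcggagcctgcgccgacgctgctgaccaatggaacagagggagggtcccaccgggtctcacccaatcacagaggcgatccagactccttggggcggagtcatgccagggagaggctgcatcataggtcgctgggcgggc
The Bhlhe40 stretch runs from -550 to -251 bases relative to the gene start and lies wholly inside the peak. It does not include the region of maximum signal, which lies downstream of it at chr6:108660503-108660505. The Bhlhe41 stretch holds only a small part of that peak's region of maximum signal, chr6:145856116-145856219. The Cry2 stretch ends before the first exon and reaches slightly past the upstream edge of its peak. Bhlhe40 and Per2 have no entry in the RefSeq promoter table.

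Bhlhe40 carried the promoter peak with the highest total signal of the whole library. Its single assigned peak, at chr6:108658911-108661738, had a total signal of 853180 and a maximum signal of 1046 over 2828 bp. By total signal it ranked 3 of the 99707 peaks on chromosomes 1 to 19, X and Y (percentile 99.997) and 1 of the 15279 peaks within 1 kb of a TSS. By maximum signal it ranked 8 among all peaks and 5 among those near a TSS, and by width 52. For comparison, peaks within 1 kb of a TSS had a median total signal of 33199, a median maximum of 116 and a median width of 483 bp.

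The Bhlhe40 peak spanned the gene start (chromosome 6, 108660629 to 108666925, plus strand, ENSMUSG00000030103), from 1718 bp upstream to 1109 bp downstream. Its region of maximum signal was 3 bp wide, at -124 bp from the TSS. The total of the peak was 0.288 of maximum times width, where a rectangle gives 1. Among the peaks of the 10 genes that were not of constant height, this value ran from 0.230 at Bhlhe41 to 0.983 at Cry1. A low value was therefore not particular to Bhlhe40. The mean signal per base of the Bhlhe40 peak was 301.7, against a median of 85 over all peaks. The antisense transcript 0610040F04Rik starts 305 bp inside Bhlhe40 and runs the other way, so the peak covers both starts and the signal cannot be divided between them.

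**Figure D1:**
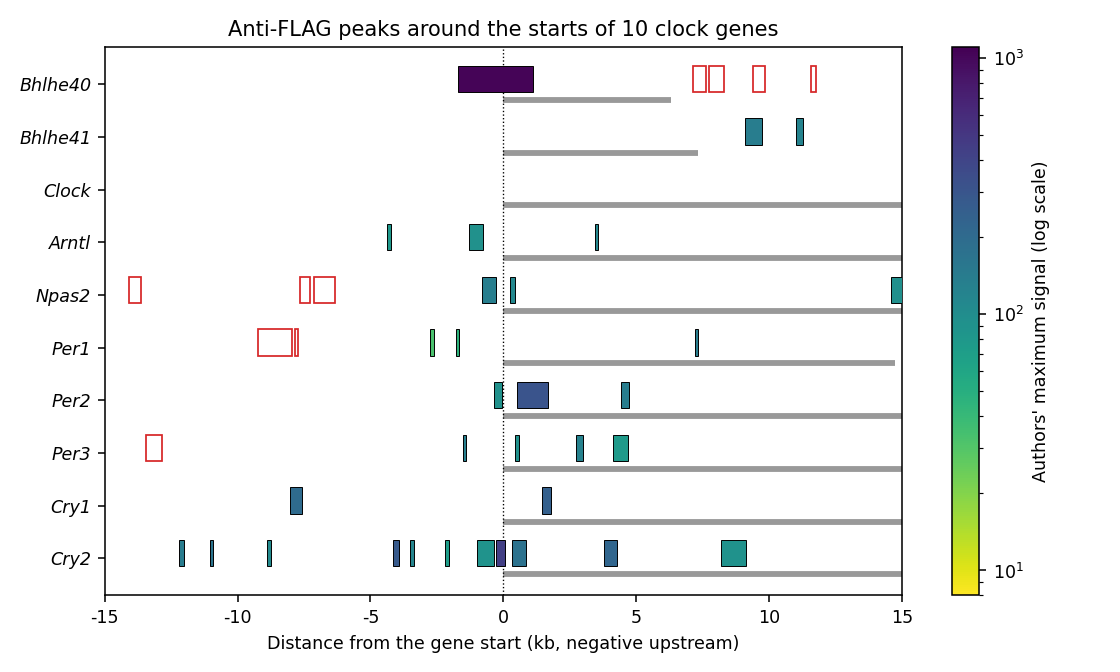
Peaks within 15 kb of the gene start (dotted line) of each gene, drawn in the direction of transcription, with the gene body as a grey bar. Filled boxes are peaks assigned to the gene, coloured by the authors' maximum signal on a log scale and drawn at least 120 bp wide, and open red boxes are peaks assigned to another gene. The Bhlhe40 start lies in a peak with a maximum of 1046, and Clock has no peak in this span.

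No further peak was assigned to Bhlhe40, and no peak had the centre of its maximum in the gene body. Beyond its 3′ end, 4 peaks lay 7209, 8027, 9624 and 11673 bp from the gene start, with maximum signals of 190, 146, 31 and 146, and the authors gave all of them to 0610040F04Rik. That antisense gene had 9 assigned peaks, none within 1 kb of a TSS, with maximum signals from 31 to 255. Within 100 kb of the Bhlhe40 start there were 12 peaks, more than at 55.4% of the 21911 protein-coding genes, whose median was 10. When each peak was instead given to the nearest start of a protein-coding gene, Bhlhe40 received 26 peaks, so its count of 1 depends on the rule of assignment.

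Protein-coding genes were ranked by the total signal of their largest peak within 1 kb of a TSS, to find those most like Bhlhe40. Bhlhe40 was first, so only the next genes could be named. Dlg4, which encodes the postsynaptic scaffold PSD-95, had 750412 over 3338 bp with a maximum of 887. Slc8a2, a sodium-calcium exchanger, had 742571 over 1541 bp with a maximum of 1478. Dlg4 had 8 assigned peaks and Slc8a2 6, against 1 for Bhlhe40.

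Bhlhe41, the paralog, had no such peak. It lies at chromosome 6, 145858243 to 145865558, minus strand (ENSMUSG00000030256), and its start was 9086 bp from the nearest peak. All of its 5 assigned peaks were distal intergenic, centred at 9391, 11133, 16291, -29143 and -32963 bp from the gene start. Their maximum signals in that order were 139, 121, 109, 191 and 24, and the peak of 191 was at percentile 90.2 of all peaks. The 5 peaks exceeded the count of most genes of like length: of 2347 protein-coding genes within 1.25 times its length, 9.29% had 5 or more.

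The Bhlhe41 peak nearest to the gene, at chr6:145855833-145856472 beyond the 3′ end of the gene, held CACGTG 3 times, at 145855865, 145855891 and 145856191. The first 2 are in the sequence printed above, and the third lies in the region of maximum signal. Over all peaks, 79 of 99707 (0.0792%) held CACGTG 3 times or more, and among the 22911 peaks of at least 600 bp the share was 0.240%. This peak, singled out after its sequence was seen, was 640 bp wide and not of constant height. Its total signal of 20431 was at percentile 41.2.

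Among the activators, Arntl and Npas2 had peaks close to a TSS and Clock had none. Arntl (chromosome 7, 113207465 to 113314126, plus strand, ENSMUSG00000055116) had 13 assigned peaks. The one nearest its start, at chr7:113206175-113206718, lay at -770 bp with a maximum signal of 93, under the median of 101 for all peaks. Its tallest peak, at chr7:113277998-113278877 in intron 3 of 19, reached 178 with a total of 76018, at percentile 93.2. Of the 13 peaks 11 lay in the gene body, and 9 were of constant height.

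Npas2 (chromosome 1, 39193731 to 39363236, plus strand, ENSMUSG00000026077) had 14 assigned peaks, the most of the 10 genes. Of the peaks near its start, chr1:39192942-39193470, at -486 bp, had a maximum of 136 (percentile 75.3), and chr1:39193992-39194158, at -57 bp from another TSS, had 110 (percentile 56.5). The other 12 were spread through the body of this long gene with maximum signals from 13 to 119, and 11 of them were of constant height. Among 753 genes of like length, 28.9% had 14 peaks or more.

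Clock (chromosome 5, 76209868 to 76304792, minus strand, ENSMUSG00000029238) was nearly empty. Its start was 15315 bp from the nearest peak, and its 1 assigned peak, at chr5:76276891-76277581 in intron 2 of 22, had a maximum signal of 8. That is at percentile 0.297 of all peaks, and its total of 4280 is at percentile 2.49 (the lowest total in the list is 3329). A second peak in the gene body had a maximum of 20 and was assigned to Tmem165. Of 1368 genes of like length, 92.0% had at least 1 assigned peak, and their median was 6.

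**Figure D2:**
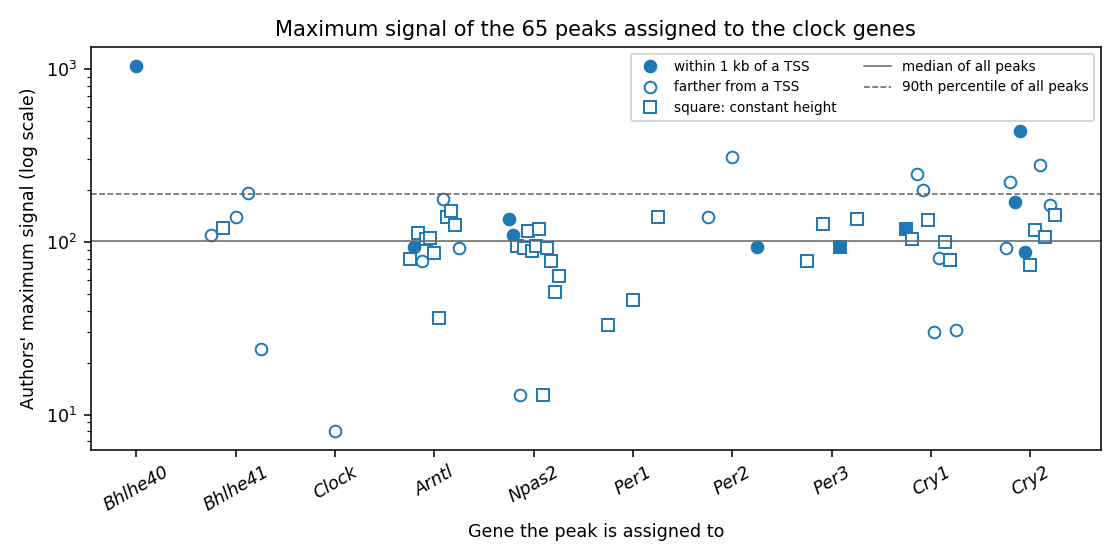
The authors' maximum signal (log scale) of each of the 65 peaks by assigned gene. Filled symbols lie within 1 kb of a TSS, squares have a constant height, and the lines mark the median (101) and the 90th percentile of all peaks. The Bhlhe40 peak at 1046 stands above the rest, and the single Clock peak at 8 is the lowest.

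The Period genes differed in where their peaks sat. Per2 (chromosome 1, 91415982 to 91459324, minus strand, ENSMUSG00000055866) had 3 assigned peaks, none of constant height. The tallest, at chr1:91457653-91458811, lay 1439 bp downstream of the TSS, and the authors classed it as promoter. It had a maximum of 308 (percentile 97.9) and a total of 109548 (percentile 97.0). The peak just upstream of the start, at chr1:91459389-91459681 and -257 bp from the TSS, reached only 93, and the one 4545 bp downstream 140. The strongest signal at Per2 thus lay inside the gene, beyond the 1 kb limit used here for promoter peaks but within the authors' 3 kb promoter class. With peaks within 1 kb of each other merged, Per2 was not among the 6 genes with a peak within 1 kb of a TSS.

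Per1 and Per3 had low or narrow peaks. Per1 (chromosome 11, 69095217 to 69109960, plus strand, ENSMUSG00000020893), which is induced by light and by cAMP signalling, had 3 assigned peaks at -2600, -1652 and 1903 bp from a TSS. Their maximum signals were 33, 46 and 140, and all were of constant height. The distances of -2600 and -1652 bp are from the gene start given above. The RefSeq promoter entries of Per1, chr11:69098699-69098998 and chr11:69099902-69100201, lie inside the gene, farther from those peaks. The surroundings of Per1 were dense: 33 peaks lay within 100 kb of its start, more than at 97.2% of protein-coding genes. A taller one, at chr11:69086002-69087266 with a maximum of 230, was assigned to Vamp2. Per3 (chromosome 4, 151003652 to 151044665, minus strand, ENSMUSG00000028957) had 4 assigned peaks with maximum signals from 77 to 135, all of constant height. The one within 1 kb, 453 bp downstream of the TSS, was 73 bp wide with a maximum of 93.

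The cryptochromes had more peaks. Cry2 (chromosome 2, 92403646 to 92434043, minus strand, ENSMUSG00000068742) received 11 peaks in the authors' assignment, and 3 were within 1 kb of a TSS. The peak over its start, at chr2:92433967-92434304, had a maximum signal of 438 (percentile 99.5, rank 532) and a total of 86297. It was flanked by chr2:92433172-92433713 with a maximum of 171, at 409 bp, and by chr2:92434375-92435039 with 87, at -680 bp. Peaks of 222, at 2402 bp from another TSS and 4127 bp from the gene start, and of 279, at -4032 bp, were also in the top 10% by maximum. The 9 peaks within 10 kb of the Cry2 start exceeded the number at 99.7% of protein-coding genes, whose median was 1. Among 2634 genes of like length, 4.29% had 11 assigned peaks or more.

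Cry1 (chromosome 10, 85131700 to 85185064, minus strand, ENSMUSG00000020038) had 10 assigned peaks. None covered its start, from which the nearest was 1469 bp away. That peak, at chr10:85183272-85183595 and 1545 bp downstream of the TSS, was the tallest at 247 (percentile 95.4), followed by chr10:85192630-85193104, at -7843 bp, with 199. The 1 peak within 1 kb of an annotated TSS, at chr10:85150902-85151050 with a maximum of 119 and a constant height, lay 34089 bp into the gene, beside the start of an internal transcript. The peaks farther upstream lay between -25902 and -80789 bp, with maximum signals from 30 to 134. The authors classed the one at -36028 bp as exon and the one at -80789 bp as intron, though both lie outside the Cry1 body.

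**Figure D3:**
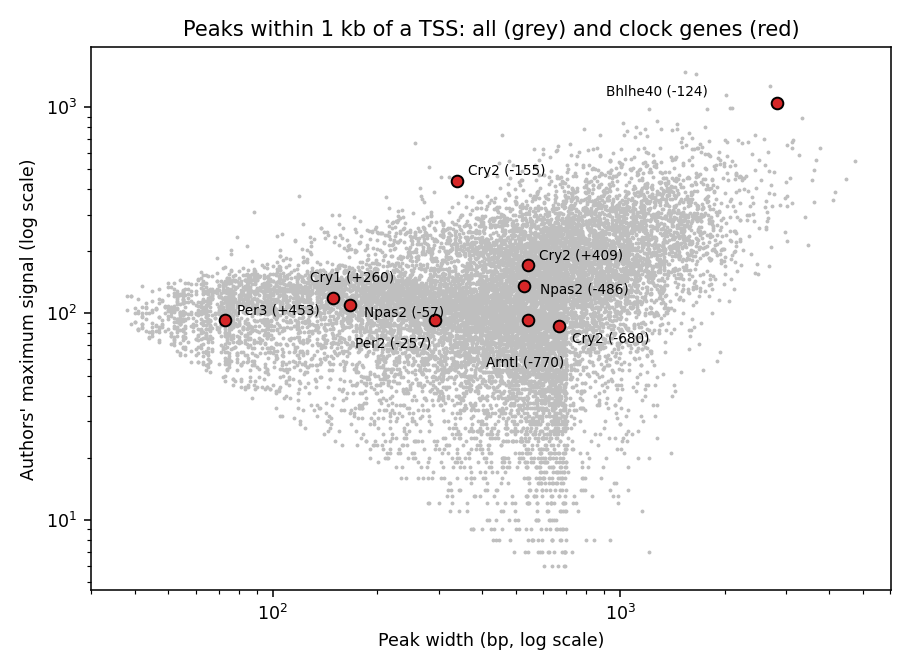
Width (bp, log scale) against the authors' maximum signal (log scale) for the 15279 peaks within 1 kb of a TSS (grey) and the 10 of them assigned to the clock genes (red, with the authors' distance to the TSS in bp). The Bhlhe40 peak is at the upper right with a width of 2828 bp, the Cry2 peak at 438 is 338 bp wide, and the other 8 lie within the main cloud.

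Counted over the genes, all 10 had at least 1 assigned peak, against 71.0% of protein-coding genes. A peak within 1 kb of a TSS was assigned to 7 of the 10 (all except Bhlhe41, Clock and Per1), against 41.6%. Leaving out peaks of constant height, 5 of 10 had one (Bhlhe40, Arntl, Npas2, Per2 and Cry2), against 28.3%. The annotated gene start itself lay in a peak for 2 of 10, Bhlhe40 and Cry2, against 20.4%, a share close to that background. The background shares were not matched for gene length or number of annotated starts. The peaks that chose these genes also give the counts of the 10, so the counts are a description and were not tested. Arntl at -770 bp was the member nearest inside the 1 kb limit, and the peaks of Per3 at -1436 bp and Per2 at 1439 bp were the nearest outside it.

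As peaks, the 65 resembled the library as a whole apart from a few. The median maximum signal was 104 against 101 over all peaks, and 56.9% had a constant height against 63.3%. Within 1 kb of a TSS lay 10 of the 65 (15.4%), against 15.3% of all peaks. The authors placed 20 in promoters within 3 kb (30.8% against 24.6%), 26 in introns (40.0% against 38.0%), 16 in distal intergenic sequence (24.6% against 31.9%) and 3 in exons. An intron or exon class need not lie in the assigned gene, as for Cry1 peaks far upstream of its start. By maximum signal 8 of the 65 (12.3%) were in the top 10% of all peaks: 3 at Cry2, 2 at Cry1 and 1 each at Bhlhe40, Bhlhe41 and Per2. The Bhlhe40 peak alone held 32.2% of the total signal summed over the 10 genes, and it was 7.79 times the next largest, that of Per2.

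**Figure D4:**
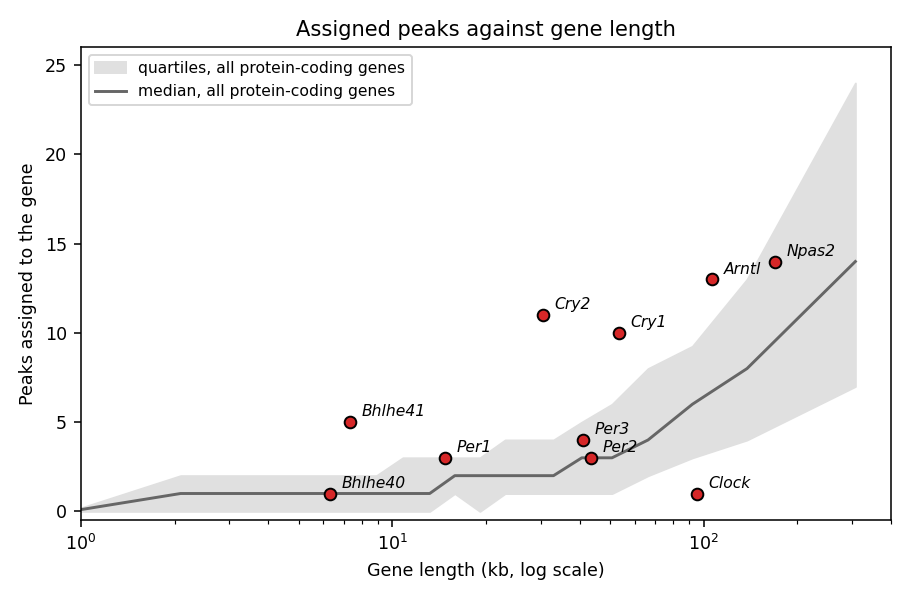
Peaks assigned to each of the 10 genes (red) against gene length (kb, log scale), with the median (line) and quartiles (band) of all protein-coding genes in 20 bins of length. Cry2, Cry1, Arntl and Bhlhe41 lie above the band, Clock lies below it, and Bhlhe40 is at the median with 1 peak.

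Ordered by the tallest peak within 1 kb of a TSS, the genes ran from Bhlhe40 (1046) through Cry2 (438), Npas2 (136) and Cry1 (119, at the internal transcript) to Arntl, Per2 and Per3 (93 each). Bhlhe41, Clock and Per1 had none. Of the 21911 protein-coding genes Bhlhe40 was number 5 and Cry2 number 245 in this order. The steps among Npas2, Cry1, Arntl, Per2 and Per3 cannot be set against any spread between libraries.

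The sequences under the peaks were not part of how the genes were chosen. Windows of 300 bases, centred on the region of maximum signal, were searched on both strands for CACGTG, its variant CACGTT, the D-boxes TTATGTAA and TTACGTAA, the cAMP response element TGACGTCA, and TATTTTT or TATTTTG, an insulin response sequence reported as the element of PARIS. CACGTG is its own reverse complement, and no listed sequence contains another. CACGTG was in 1 of the 10 windows of peaks within 1 kb of a TSS, that of Bhlhe40, which is 1 of 7 genes with such a peak. It was in 6.71% of the windows of all 15279 such peaks (Wilson 95% interval 6.32 to 7.12, counting error only). Over all windows it was in 3 of the 65, against 4.50% of all peaks. At Bhlhe40 it lay at -257 bases from the gene start, and another copy in the same peak at -1186. Over whole peaks, 4 of the 65 held CACGTG (Bhlhe40, Bhlhe41, Npas2 and Per3), and 6.25% of all peaks did.

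Other elements were scattered. CACGTT was in 2 of the 10 promoter windows, both at Cry2, where one lay at -192 bases from the gene start, against 4.91% of all promoter windows. Over all windows it was in 4 of the 65, against 4.05% of all peaks. The D-box TTATGTAA was in the Per2 window, where it lay at -125 bases from the gene start, and in 0.668% of all promoter windows. It was also in the window of the Per3 peak 2719 bp downstream of the TSS, and TTACGTAA was in that of the Cry2 peak 2402 bp downstream of another TSS. TATTTTT or TATTTTG was in 1 of 10 promoter windows (the Cry2 peak at -680 bp) against 8.18%, and in 11 of all 65 windows, 4 of them at Cry1, against 14.7% of all peaks. TGACGTCA was in none of the 65 windows and in 0.415% of all. A copy lay outside the window in the Cry2 peak at chr2:92424902-92425835. A match is a stretch of letters, and binding by a clock protein was not measured.

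The RefSeq promoters (250 bases before to 50 after a start, GRCm38.p6) held entries for 8 of the 10 genes, with Bhlhe40 and Per2 missing. CACGTG was in those of Bhlhe41, Cry1 and Per1 and in 7.15% of all 32851 promoters. None of these 3 genes had a peak within 1 kb of the start that the entry describes. The GC content was 70.7% for Bhlhe41 and 72.3% for Cry1, and 76.3%, 76.7% and 47.0% for the 3 entries of Clock. It was 63.3% and 64.7% for the entries of Per1 and 60.7% and 61.7% for those of Arntl. It was 70.3% for Cry2, 72.7% for Npas2 and 73.3% for Per3, against a median of 52.7% over all entries. The ranges of the genes with a peak within 1 kb of the gene start (Arntl, Cry2, Npas2 and Per3) and of those without (Bhlhe41, Clock, Cry1 and Per1) overlapped. The summit window of the Bhlhe40 peak had 68.0% GC, higher than 82.9% of all promoter windows, while that of the Arntl peak had 48.7%, higher than 19.9%.

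A wider list of 18 clock genes, comprising nuclear receptors, D-box factors, kinases, ubiquitin ligases and other regulators, was counted in the same way. All 18 had an assigned peak, against 71.0% of protein-coding genes. Within 1 kb of a TSS 15 had one, against 41.6%, and 13 had one there that was not of constant height, against 28.3%. The gene start lay in a peak for 10 of the 18, against 20.4%. Csnk1d, Btrc and Timeless had no peak within 1 kb. Any annotated TSS of a gene counts here, and the background was not matched for gene length or number of transcripts. The list was drawn up with values from this library known, so these counts are a description too.

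The tallest of these peaks belonged to repressors and to a D-box activator. Nr1d2, a nuclear receptor that represses Arntl, had a peak of 623 over its start (chr14:18238143-18239776). Ciart, a repressor of CLOCK and BMAL1, had one of 521 at -9 bp from a TSS (chr3:95881795-95883686). Nfil3, the D-box repressor, had 379 over 2781 bp (chr13:52980016-52982796), and Tef, a D-box activator, 326 (chr15:81802159-81803214). Each was above the tallest peak of every one of the 10 core genes except Bhlhe40 and Cry2. Nr1d2 and Ciart also exceeded Cry2.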

How the data were processed

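CUT&Tag was made from CamK-PARIS hippocampus with anti-FLAG (1 library) and IgG (1 library). Per the labels' protocols, reads were trimmed, aligned to mm10 with Bowtie2, filtered for quality and duplicates, and peaks were called with SEACR against IgG. Versions and SEACR settings are not given in the sources used here. The deposited files hold, per peak, the authors' total and maximum signal, in whole numbers whose scaling is not stated, and the authors' gene assignment and distance to a TSS. The copy of the total signal in the annotation equalled that in the peak list for 100% of annotated peaks.

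Peaks on chromosomes 1 to 19, X and Y were analysed with Python 3.11.15 and pandas 2.3.3. Backgrounds were the 21911 protein-coding genes of GENCODE M21, matched by symbol (97.8% of assigned peaks carried a GENCODE gene name). Percentiles give the share of peaks or genes with a lower value. The motif search was tested on simulated data. Wilson 95% intervals came from statsmodels 0.14.6. All 10 genes are named. Of the wider list, the 4 genes with the tallest peak within 1 kb of a TSS are named, with those lacking one. The genes nearest to Bhlhe40 were taken by rank. Members, lists, the threshold for constant height and the alternatives were chosen with earlier results of these data known. No test was made, since each group has 1 library.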

Additional observations from a re-analysis of the deposited data

How the results depend on the processing

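The 5 counts and ranks for these genes were recomputed under 25 alternatives, of which 8 moved the value. A count was taken as moved when it changed by more than 1.5 times, and the percentile of the Bhlhe40 peak when it left the 95% Wilson interval of its main value. That interval served only as a cut-off, since the rank of 1 peak in a fixed list has no sampling error. With only peaks above the median maximum signal, 4 genes had a peak within 1 kb of a TSS (Bhlhe40, Cry1, Cry2 and Npas2) and 34 peaks were assigned in all. Both fall by construction, since fewer peaks are used, as does the 28 peaks left without those of constant height. Giving each peak to the nearest protein-coding gene start raised the peaks of the 10 genes to 108 and those of Bhlhe40 to 26. The Bhlhe40 peak was at percentile 99.96 by total signal divided by width, and at 99.99 with peaks within 1 kb merged, against 99.997, small shifts whose cause was not tested. In windows of 200 bases CACGTG was in the promoter window of 0 genes, because the copy at Bhlhe40 lies outside the shorter window. The depth is unknown and replicate error could not be given. No paired analysis was possible because each antibody has 1 library.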

Other observations

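Peaks in or within 10 kb of the 10 genes were not always assigned to them: 22 such peaks carried another symbol, and 3 of these lay inside the gene body of Clock, Per2 or Cry2. The one inside Cry2, at chr2:92408899-92409092 with a maximum signal of 134, lay 14 bp from a TSS of D930015M05Rik. The one inside Per2, at chr1:91418018-91418094 had a maximum of 123 and was assigned to Hes6. Upstream of Npas2, at -6718 bp from its start, a peak of 787 bp with a maximum of 134 was assigned to Mir6349. Upstream of Per1, the peak at chr11:69086002-69087266 had a total signal of 126195, larger than that of any peak assigned to the 10 genes other than the one at Bhlhe40.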
